A study of Mus musculus with 69 samples.

Results

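The tubule of the kidney recovers sugar from the filtrate with 9 carriers that were read here by their gene symbols, 4 sodium-coupled carriers of the Slc5 family and 5 facilitative carriers of the Slc2 family. The sodium-coupled genes were Slc5a1, Slc5a2, Slc5a8 and Slc5a10, and the facilitative genes were Slc2a1, Slc2a2, Slc2a5, Slc2a6 and Slc2a9. All 9 were listed once in every library, out of 24523 symbols with counts, and all 9 passed the filter on low counts in every comparison. They were chosen by name and not by their values. The set is wider than glucose, since Slc5a8 carries monocarboxylates such as lactate and Slc2a9 carries urate.

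Whole perfused kidneys came from NZB/W mice, the F1 hybrid of NZB and NZW that develops an immune complex nephritis like that of human lupus. The 30 young mice were 12 weeks old, and the 27 nephritic mice were 30 to 45 weeks old and had passed 300 mg/dl of proteinuria. The 8 remission mice, aged 36 to 50 weeks, had reached the same proteinuria and were then given 1 dose of cyclophosphamide at 50 mg/kg with 6 doses each of CTLA4Ig (200 µg) and anti-CD40L (250 µg). Their kidneys were taken 8 weeks later, with proteinuria down to 30 mg/dl. At ZT0 (lights on), ZT4, ZT8, ZT12, ZT16 and ZT20 there were 7, 4, 4, 7, 4 and 4 young mice and 7, 4, 4, 6, 3 and 3 nephritic ones. Remission was sampled at ZT0 and ZT12, with 4 mice at each. Age and disease cannot be told apart between young and nephritic mice, and remission coincides with a separate sequencing run. The labels give each of the 65 original libraries a mouse of its own, and 4 further libraries repeat mice among these.

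Glucose, fructose and mannose that pass the glomerulus are taken up again almost entirely in the proximal tubule. A sodium-coupled carrier in the brush border pulls the sugar into the cell along the sodium gradient that the sodium pump keeps up, and a facilitative carrier in the basolateral membrane lets it out towards the blood. Slc5a2, also called SGLT2, does most of the work for glucose in the early proximal tubule, and Slc5a1, or SGLT1, takes what is left further down. The clock of the kidney drives daily changes in many transport genes.

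Total counts per library ranged from 25257530 to 35744843 in young, 26596500 to 48075977 in nephritic and 13311278 to 21849912 in remission mice. Levels are given as CPM, the counts of a gene scaled to library size with TMM factors. The 10 proximal tubule markers were detected in every group, and young mice had a summed level of 17263 ± 1705 CPM (SD, n = 30), nephritic mice one of 10559 ± 3920 CPM (SD, n = 27) and remission mice one of 11300 ± 1975 CPM (SD, n = 8). Young and nephritic libraries came from 2 sequencing sets. The smaller one, Set 1, had 6 young and 5 nephritic mice, which were killed at ZT0 or ZT12. Libraries of 10 young and 2 nephritic mice held at least 1000 CPM of the liver genes Alb, Apoa1 and Ttr or at least 100 CPM of the adrenal genes Cyp11b1, Cyp11a1 and Star. The 2 nephritic mice, RX10LU and RX12RU, were both of ZT0. The 10 young mice were ZT0RU, ZT40 (ZT4), ZT8LU, ZT12RL, ZT12LU, ZT120 (ZT12), ZT16RU, ZT16LL, ZT160 (ZT16) and ZT20LU. Mouse s9 is labelled ZT12 among the remission mice, but its clock gene Arntl stood at 27 CPM, beside 23 to 28.8 CPM in the 4 remission mice of ZT0 and 3.19 to 4.89 CPM in the other 3 of ZT12. The run with the remission samples also repeated 4 mice, and the repeat library of RX11RU correlated more closely with the original of RX11LU (r = 0.991) than with its own (r = 0.978).

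Positions on GRCm38 come from GENCODE. Slc5a2 lies on chromosome 7 from 128265657 to 128272430 on the plus strand, Slc5a1 on chromosome 5 from 33104219 to 33162870, Slc5a8 on chromosome 10 from 88885992 to 88929515, and Slc5a10 on chromosome 11 from 61672781 to 61720826 on the minus strand. Slc2a6 lies on chromosome 2 from 27021363 to 27027998 and Slc2a9 on chromosome 5 from 38349273 to 38503143, both on the minus strand. Slc2a1 (chromosome 4, from 119108711 to 119137983), Slc2a2 (chromosome 3, from 28697903 to 28731359) and Slc2a5 (chromosome 4, from 150119283 to 150144169) lie on the plus strand. The strand setting of the counting is not given in the sources used here, so reads of overlapping exons on opposite strands cannot be told apart. Slc5a2 shares exon positions with BC017158, and Slc5a10 with Grap and Fam83g. These neighbours were low beside the carriers, with 22.3 ± 2.50 CPM of BC017158, 8.10 ± 1.38 CPM of Grap and 23.8 ± 4.45 CPM of Fam83g in young mice (SD, n = 30).

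Because 7 of the 9 genes varied over the day in young mice, the promoters were searched for an E-box (CACGTG, bound by Clock and Bmal1) and a ROR element (TAGGTCA), on both strands. RefSeq promoters of GRCm38.p6, from 250 bases before to 50 after the start, were found for 8 of the 9 members, and that of Slc5a2 was not analysed here. The E-box was found in Slc5a1 and the ROR element in Slc2a9, and neither motif in Slc5a8, Slc5a10, Slc2a1, Slc2a2, Slc2a5 or Slc2a6. Among all 32851 promoters, 7.15% held the E-box and 2.61% the ROR element. The windows of 70 bases around the matches are shown to place each motif, which is in capitals and may stand on either strand, and a match is a description, not a binding site. They lie at chr5:33104046-33104115 (plus strand) and chr5:38483402-38483471 (minus strand), and the motifs start 143 and 56 bases before the start site. That of Slc2a9 is an internal start, inside the span of the gene, and other starts of its 12 transcripts were not searched.
Slc5a1: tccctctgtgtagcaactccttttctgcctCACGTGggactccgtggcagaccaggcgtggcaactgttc
Slc2a9: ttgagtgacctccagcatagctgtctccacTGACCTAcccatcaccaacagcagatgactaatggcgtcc

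Read per kb of exon, Slc5a2 was the most abundant carrier of young mice, at 119 ± 26.4 CPM per kb (SD, n = 30). Slc5a10, the mannose and fructose carrier SGLT5, followed at 92.7 ± 12.3 CPM per kb, a difference of 26.2 that did not exceed the SD of Slc5a2. That SD is a spread between mice over all time points and does not test the difference within mice. Slc5a2 was the higher in every young mouse of ZT0 and ZT4. Slc5a10 was the higher in some mice of each later time point, among them ZT8RL, ZT12RU, ZT16RU and ZT20RL. Slc2a1 (29 ± 4.27), Slc2a5 (27.7 ± 7.27), Slc5a1 (26.8 ± 4.90) and Slc2a2 (23.2 ± 5.51 CPM per kb) came next, and neighbours in this run of 4 differed by less than their SD. Below them were Slc5a8 at 14.7 ± 3.54, Slc2a9 at 4.68 ± 0.981 and Slc2a6 at 0.283 ± 0.0993 CPM per kb. In nephritic mice Slc5a10 and Slc5a2 stood side by side at 73.9 ± 20.7 and 73.1 ± 27.5 CPM per kb (SD, n = 27), a difference smaller than either SD. In remission mice Slc5a10 stood at 112 ± 19 and Slc5a2 at 48.9 ± 20.4 CPM per kb (SD, n = 8). Slc5a2 thus made up 46.6% ± 6.48 of the sodium-coupled CPM per kb in young, 40.2% ± 7.23 in nephritic and 23.4% ± 5.88 in remission mice. The highest share in remission, 31.4%, was below the lowest in young mice, 35.4%. Young and nephritic mice here are of all 6 time points, and remission mice of ZT0 and ZT12 only, in a run of their own. Among young mice of ZT0 and ZT12 the lowest share was 37.1%, in ZT12RU. The sum of the sodium-coupled carriers over that of the facilitative ones was 2.99 ± 0.231 in young, 2.46 ± 0.448 in nephritic and 2.43 ± 0.344 in remission mice. These shares and ratios are descriptions with no test.

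**Figure D1:**
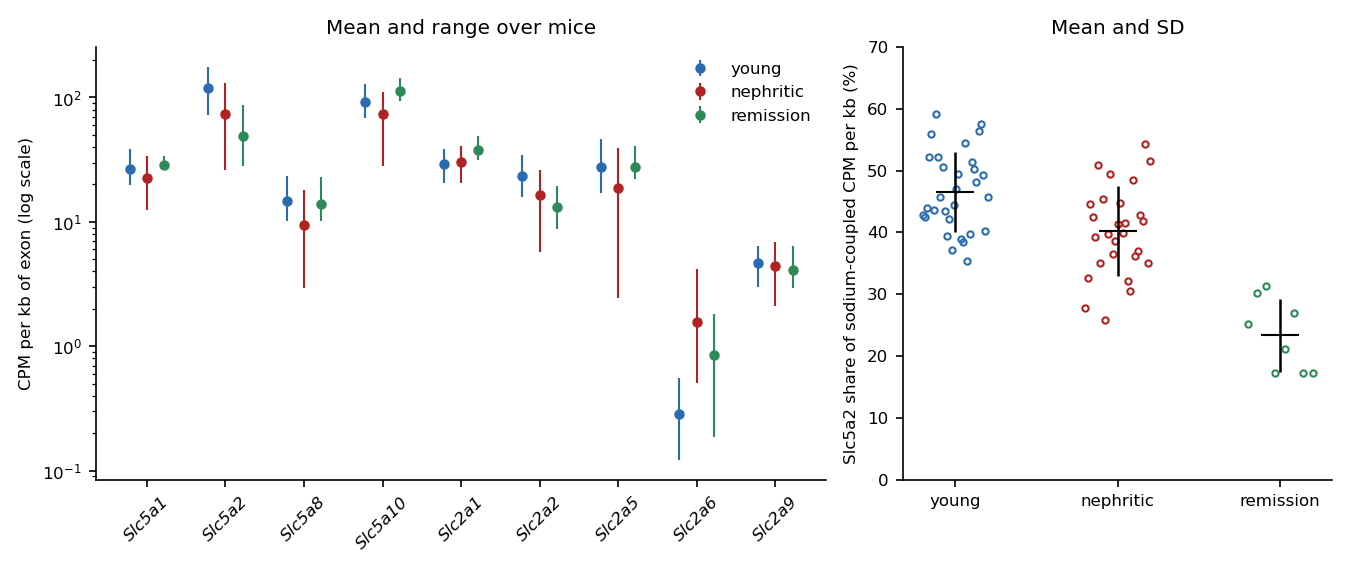
Left, CPM per kb of exon on a log scale for each carrier, with points at the mean and bars from the lowest to the highest mouse in young (30), nephritic (27) and remission (8) mice. Right, the share of Slc5a2 in the summed sodium-coupled CPM per kb of each mouse in percent, with the mean and SD in black, where all remission mice lie under the lowest young mouse at 35.4%. Young and nephritic mice are of all time points, and remission mice of ZT0 and ZT12.

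The 4 sodium-coupled carriers were all lower in nephritic than in young mice, while the facilitative ones split. In edgeR's quasi-likelihood fit, which also held time point and set, with Benjamini-Hochberg adjustment over 17521 genes, 62.1% of all genes passed an adjusted p of 0.05, 28.1% higher and 33.9% lower. Among the sodium-coupled members 4 of 4 passed and were lower, with a median log2 change of -0.53. The call of Slc5a1 rested on Set 1, and within Set 2 alone its log2 change was -0.07 (adjusted p = 0.32, edgeR). Of the 5 facilitative members, 2 were lower, 1 was higher and 2 did not pass, with a median of -0.10, against -0.03 over all genes. In bulk kidney, fewer tubule cells and less RNA per cell cannot be told apart.

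Slc5a2 ranged from 210 to 512 CPM (median 341) in the 30 young mice and from 75.0 to 376 CPM (median 211) in the 27 nephritic mice. The groups overlapped, with 24 of the 27 nephritic mice below the young median and 13 below every young mouse. The log2 change was -0.75 (SE 0.12, adjusted p = 3.15e-07, edgeR). The gene is the target of the gliflozin drugs. BC017158, which shares exon positions with it, changed by -0.08 (adjusted p = 0.0328, edgeR).

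Slc5a8, the sodium-coupled lactate and short-chain fatty acid carrier, ranged from 54.5 to 125 CPM (median 72.8) in young and from 15.6 to 95.8 CPM (median 49.3) in nephritic mice. Of the nephritic mice, 14 of 27 fell below all young mice. The log2 change was -0.69 (SE 0.14, adjusted p = 2.17e-05, edgeR). Slc5a10 went from a young median of 220 CPM (160 to 301) to a nephritic one of 174 CPM (67.1 to 259). Its log2 change was -0.38 (SE 0.08, adjusted p = 6.66e-05, edgeR), and its overlapping neighbours moved by -0.36 (Fam83g) and 0.48 (Grap). The smallest change of the 4 was that of Slc5a1, from a median of 106 CPM (82.0 to 159) to 98.6 CPM (50.9 to 138), a log2 change of -0.28 (SE 0.07, adjusted p = 0.00132, edgeR). For Slc5a1 the call rested on Set 1. Within Set 2 alone its log2 change was -0.07 (adjusted p = 0.32, edgeR), and within Set 1 alone it was -1.07 (adjusted p = 0.000121, edgeR).

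Slc2a6, or GLUT6, is a low-abundance carrier best known from leukocytes and spleen. It ranged from 0.391 to 1.77 CPM in young mice, with as few as 12 counts in a library, and from 1.64 to 13.4 CPM (median of 4.24 CPM) in nephritic mice. Of 27 nephritic mice 26 lay above every young mouse. The log2 change was 2.37 (SE 0.17, adjusted p = 3.14e-17, edgeR). Beside it, the 9 leukocyte markers summed to 71.4 ± 14.8 CPM (SD, n = 30) in young mice, to 467 ± 241 CPM (SD, n = 27) in nephritic mice and to 348 ± 172 CPM (SD, n = 8) in remission mice, and 9 of 9 were higher in nephritic mice. The tubular injury genes Havcr1, Lcn2, Vcam1 and Timp1 were higher too, 4 of 4, where 28.1% of all genes were higher. The part of either list in the result was not tested.

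Slc2a2, or GLUT2, is the basolateral exit for glucose from the early proximal tubule. It ranged from 91.2 to 198 CPM in young and from 33.2 to 151 CPM in nephritic mice, 13 of which were below all young mice. Its log2 change was -0.54 (SE 0.08, adjusted p = 3.87e-08, edgeR). Slc2a2 is also a liver gene. Without the 12 libraries with liver or adrenal genes, the change was -0.51 (adjusted p = 7.84e-06, edgeR). With these libraries left out 7 of 9 members again passed, 6 lower and 1 higher, where 55.3% of 17245 genes passed. Slc2a5, or GLUT5, the fructose carrier of the brush border, ranged in nephritic mice from 8.39 to 133 CPM, against 58.2 to 158 CPM in young mice. The log2 change was -0.65 (SE 0.16, adjusted p = 0.000613, edgeR), and 11 of 27 nephritic mice fell below all young mice. The lowest was CRS60 of Set 1, which also had the lowest Slc5a2.

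Slc2a1, or GLUT1, which most cell types carry, averaged 102 ± 15 CPM over the 30 young mice (SD) and 106 ± 18.4 CPM over the 27 nephritic mice (SD). Its log2 change of 0.06 had a 95% interval from -0.02 to 0.15 and did not pass (adjusted p = 0.217, edgeR). Slc2a9, or GLUT9, which moves urate, changed by -0.10, with an interval from -0.27 to 0.06 (adjusted p = 0.286, edgeR). Slc2a1 passed as higher when ZT200 or RX12LU was left out, with an adjusted p of 0.0395 at the lowest (edgeR). A p that misses the threshold does not show that these levels were the same.

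The same calls were read within each set, since Set 1 mice were few and moved further. Slc5a2 changed by -0.55 in Set 2 and -1.49 in Set 1, Slc5a8 by -0.39 and -2.00, Slc2a5 by -0.38 and -1.86, and Slc2a6 by 2.10 and 3.64. In both sets Slc5a2, Slc5a8, Slc5a10, Slc2a2 and Slc2a5 passed as lower and Slc2a6 as higher. Over all genes 55.9% passed in Set 2 and 59.1% in Set 1. The difference between the sets was not tested. The fits of both groups held 1 set term, though Set 1 stood apart differently in each group. At the same time points, Set 1 differed from Set 2 in log2 CPM by 0.54 in young and -0.55 in nephritic mice for Slc5a1. For Slc5a8 these were 0.60 and -1.18, and for Slc2a5 0.28 and -1.32. Slc5a2, Slc2a2 and Slc2a6 also had opposite signs, while Slc5a10, Slc2a1 and Slc2a9 did not.

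**Figure D2:**
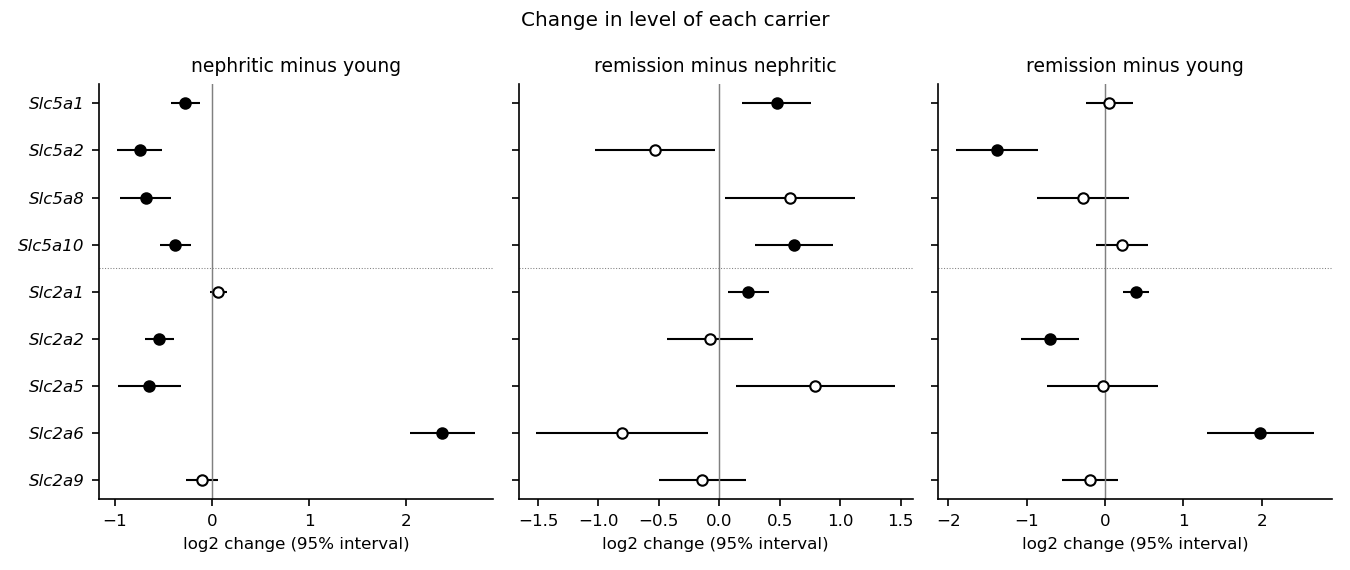
Log2 change of each carrier with its 95% interval in edgeR's fits, for nephritic minus young, remission minus nephritic and remission minus young. Filled points passed an adjusted p of 0.05 and the dotted line parts sodium-coupled (above) from facilitative carriers (below), with Slc2a6 standing apart at 2.37 in the first panel.

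The other Slc5 and Slc2 genes, their partners and the sugar enzymes moved mostly down as well, where 33.9% of all genes were lower and 28.1% higher. Of 8 other Slc5 genes tested, 5 were lower and 1 higher in nephritic mice, led by the vitamin carrier Slc5a6 (-0.92) and the lactate carrier Slc5a12 (-0.90). The 1 higher was Slc5a5, the iodide carrier, at 1.5, from a level of only 0.0958 CPM in young mice. Of 7 other Slc2 genes, 5 were lower and 2 higher. The higher ones were Slc2a3 (0.64), a high-affinity glucose carrier of leukocytes and neurons, and Slc2a10 (0.46). The largest fall in log2 change was that of Slc2a7 (-0.70), which is near the floor of the counts. All 7 partners and regulators were lower, among them the scaffold Pdzk1 (-0.75) and the transcription factor Hnf4a (-0.53). Pdzk1ip1, the partner protein of SGLT2, changed by -0.27. Of 10 sugar enzymes, 7 were lower and 2 higher. The higher were the hexokinases Hk3 (2.18), which is known from myeloid cells, and Hk2 (0.77). Khk (-0.60), the ketohexokinase that starts fructose breakdown, was among the lower ones. Of 7 urate and monocarboxylate carriers 6 were lower, the most the organic anion carrier Slc22a8 (-0.63), and among them were the urate carriers Slc22a12 (-0.55) and Abcg2 (-0.47). All 10 proximal tubule markers were lower too, with a median of -0.79. What part the tubule markers have in the fall of the carriers was not tested.

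Over the day, 7 of 9 members varied in young mice, against 39.8% of all 16521 genes tested with edgeR's F test over the 6 time points. They were 3 of the 4 sodium-coupled and 4 of the 5 facilitative carriers, and Slc5a10 (adjusted p = 0.197) and Slc2a6 (adjusted p = 0.208) did not pass. In a joint fit of young and nephritic mice, 3 of 9 passed for young mice, Slc2a1, Slc2a2 and Slc2a9, where 21.2% of 17521 genes did. Slc2a5 had the widest daily range. Its 4 mice of ZT8 had 158, 152, 122 and 118 CPM, and the 4 mice of ZT16 had 58.2, 74.8, 77.3 and 75.5 CPM, with no overlap. The highest time-point mean, adjusted for set, was 1.92-fold the lowest (adjusted p = 6.14e-08, edgeR). ZT16RU, the lowest of the ZT16 mice, ZT16LL and ZT160 were among those with liver or adrenal genes. The remaining mouse, ZT16LU, had 74.8 CPM.

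Slc2a2 rose to 175.6 ± 19.1 CPM (SD, n = 4) at ZT4 and 174 ± 21.5 CPM (SD, n = 4) at ZT8, from 107 ± 14.8 CPM (SD, n = 7) at ZT12, a range of 1.74-fold in set-adjusted means (adjusted p = 3.8e-06, edgeR). Slc5a2, the brush border partner of the same cells, also had its highest mean at ZT4, with 478, 382, 379 and 417 CPM in the 4 mice, and its lowest at ZT20, with 248, 216, 392 and 282 CPM. Only the highest ZT20 mouse reached the ZT4 values. The mean of ZT8, 390.5 ± 82.5 CPM (SD, n = 4), lay within the spread of ZT4, 414 ± 46 CPM (SD, n = 4). The test over time gave an adjusted p of 0.014, and the 24 h cosine amplitude was 0.31 (SE 0.07) in log2 units for Slc5a2 and 0.39 (SE 0.06) for Slc2a2.

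Slc2a9 peaked at ZT8, where the 4 mice had 31.6, 30.2, 32.3 and 32.7 CPM, all above the 4 mice of ZT16 at 15.6 to 22.8 CPM (adjusted p = 9.35e-05, edgeR). ZT16LU, the ZT16 mouse not among those with liver or adrenal genes, had 22.8 CPM. Slc2a1 ran the other way, with 71.5 to 82.9 CPM at ZT8 and 109.5 to 135 CPM at ZT20, again without overlap (adjusted p = 0.000916, edgeR). The fitted cosine peak of Slc2a1 fell at 18.6 h, while those of Slc5a2, Slc2a2, Slc2a5 and Slc2a9 fell between 4.21 and 8.89 h. Slc5a1 (adjusted p = 0.0119, edgeR) and Slc5a8 (adjusted p = 0.00526, edgeR) had shallow daily ranges of 1.30-fold and 1.26-fold. Their calls did not hold with a single 24 h cosine, where the adjusted p were 0.575 and 0.0971 (edgeR).

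**Figure D3:**
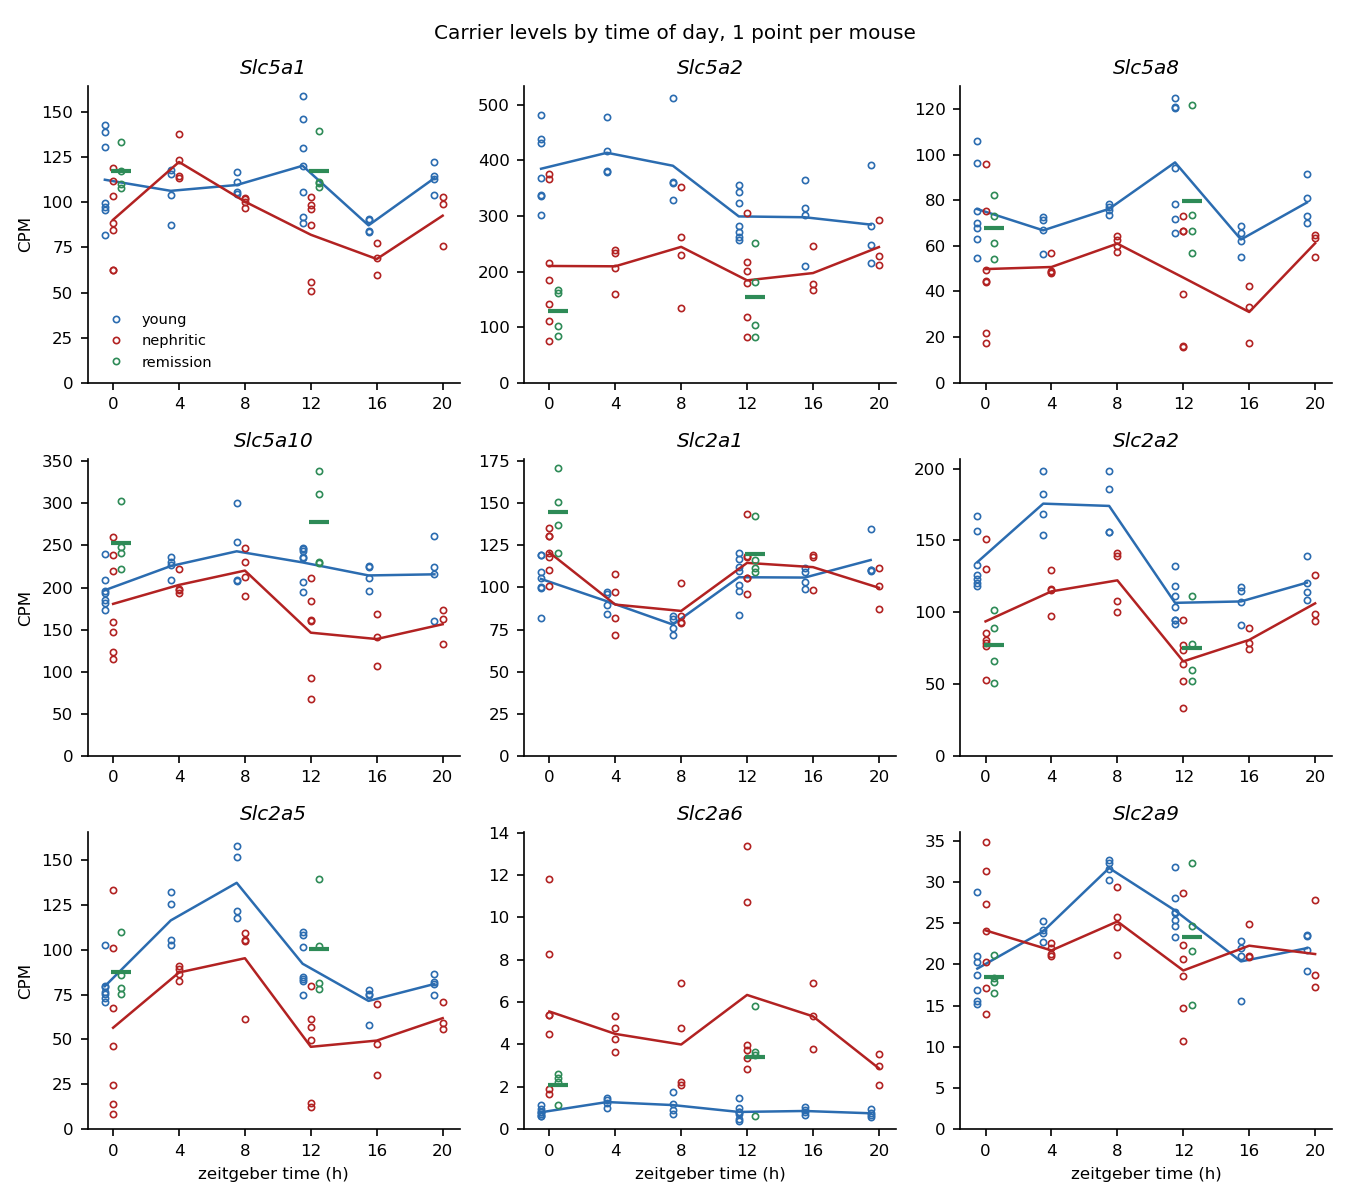
CPM of each carrier against zeitgeber time in hours, 1 open circle per mouse (groups set slightly apart), with lines through the means of young (blue) and nephritic (red) mice and bars at the means of remission mice (green). In young mice Slc2a5 is highest at ZT8, with 4 mice from 118 to 158 CPM, and Slc2a1 is lowest there, from 71.5 to 82.9 CPM.

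In nephritic mice 1 of 9 members passed the test over time, against 21.6% of all 16872 genes tested. This was Slc5a1 (adjusted p = 0.0267, edgeR), whose 4 mice of ZT4 had 123, 115, 113 and 138 CPM and whose 3 mice of ZT16 had 77.3, 69.0 and 59.5 CPM. These mice did not overlap. The call was lost when RX1OLL, RX7LL or RX9RU was left out, with an adjusted p of up to 0.0887 (edgeR). Slc2a1 (adjusted p = 0.0507, edgeR) and Slc2a2 (adjusted p = 0.0531, edgeR) lay just past the threshold, and Slc5a2 (adjusted p = 0.826, edgeR) did not pass. The count rested on a pair of ZT0 mice. Without RX10LU and RX12RU, which carried liver or adrenal genes, 6 of 9 members passed, namely Slc5a1, Slc5a8, Slc5a10, Slc2a2, Slc2a5 and Slc2a6, and the count over all genes went from 3646 to 7163 of 16739 tested. RX10LU and RX12RU also had the highest Havcr1 of the nephritic Set 2 mice, at 9.60 and 10.1 in log2 CPM, and the lowest Slc2a5, at 14.2 and 24.7 CPM. Injury and the liver or adrenal genes cannot be told apart in this pair, and the setting was chosen after seeing the data.

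Slc2a5 spread widely within 2 of the time points. The 7 nephritic mice of ZT0 ranged from 8.39 to 133 CPM and the 6 of ZT12 from 12.3 to 79.8 CPM, while the 4 of ZT4 lay between 82.8 and 91.2 CPM. Its cosine amplitude was 0.47 in log2 units in nephritic mice (SE 0.26) and 0.43 in young mice (SE 0.06). For Slc5a2 the nephritic amplitude was 0.08 (SE 0.13). For Slc5a1 it was 0.32 (SE 0.07), against a young value of 0.07 (SE 0.05). In the test of the difference in rhythm itself, over both groups, 0 of 9 members passed with edgeR, against 6.27% of 17521 genes. At an unadjusted p under 0.05 there was 1 member, Slc2a9 (adjusted p = 0.0892, edgeR), which passed with DESeq2 (adjusted p = 0.0358) and with edgeR when ZT00, CRS6LU, RX12RU or RX10RL was left out (adjusted p of 0.026 at the lowest). On simulated data this test recovered 116 of 200 changes of 2-fold from trough to peak. Those changes were 24 h cosines in nephritic mice over flat young mice, with no difference between sets. The data differ in each of these, so the share recovered is not that for the members. The fit held 1 set term for both groups, while Set 1 held only ZT0 and ZT12 and stood apart differently in each group. With Set 2 alone 0 of 9 members passed, against 9.89% of 17339 genes (edgeR).

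Between ZT0 and ZT12 in young mice, 6 of 9 members differed, against 16.6% of 15504 genes. Slc5a2 (log2 change 0.36) and Slc2a2 (0.33) were higher at ZT0, where 7.59% of genes were higher. Slc2a9 (-0.48), Slc5a8 (-0.35), Slc5a10 (-0.24) and Slc2a5 (-0.22) were lower there, as were 9.05% of genes. The smallest adjusted p was that of Slc2a9, 0.00301, and the largest that of Slc5a10, 0.0402 (edgeR). Leaving out 1 mouse at a time, 4 to 6 members passed. The call of Slc5a10 was lost in 11 of 14 such fits (adjusted p up to 0.0918, edgeR) and that of Slc2a5 in 8 of 14 (adjusted p up to 0.0838, edgeR). With Set 2 alone 2 of 9 passed, where 12.4% of 14784 genes did. Without the libraries with liver or adrenal genes 1 of 9 did, Slc5a8, where 8.04% of 15010 genes did, a count near the share over all genes. In nephritic mice 0 of 9 passed with edgeR and with DESeq2, beside 0.0746% of 16076 genes with edgeR (0.0498% higher and 0.0249% lower), and 1 of 9, Slc2a2, had an unadjusted p under 0.05 (0.0195, adjusted p = 0.258, edgeR). In remission mice 0 of 9 passed with edgeR and with DESeq2, beside 0 of 14451 genes with edgeR, and 0 of 9 had an unadjusted p under 0.05. Leaving out s9 left the remission count at 0 of 9, while 202 of 14316 genes then passed (1.41%, edgeR). With DESeq2 3.71% of all genes passed in nephritic mice and 0.166% in remission mice.

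Remission mice were compared with the 13 nephritic and 14 young mice of ZT0 and ZT12 in a single edgeR fit over 16841 genes. Against nephritic mice 3 of 9 members passed, all higher, where 37.5% of all genes passed, 17% higher and 20.5% lower. Against young mice 4 of 9 passed, 2 higher and 2 lower, where 41.6% passed, 21.2% higher and 20.4% lower. These counts are near the share over all genes and are no result about the carriers as a group. The 2 comparisons share the remission mice.

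Slc5a10 was 222 to 339 CPM (median 244) in remission mice, 67.1 to 259 CPM (median 161) in nephritic mice and 173 to 247 CPM (median 208) in young mice. All 8 remission mice lay above the nephritic median and 4 above every young mouse. The log2 change against nephritic mice was 0.62 (SE 0.16, adjusted p = 0.00376, edgeR), and against young mice 0.22, which did not pass (adjusted p = 0.308, edgeR). Slc5a1 was 108 to 140 CPM in remission and 50.9 to 119 CPM in nephritic mice, a log2 change of 0.47 (SE 0.15, adjusted p = 0.0104, edgeR). The nephritic mice averaged 68.5 ± 17.1 CPM (SD, n = 5) in Set 1 and 97.8 ± 17.1 CPM (SD, n = 8) in Set 2. For Slc5a10 these means were 132 ± 66.6 and 185 ± 43.2 CPM. The fit held 1 term for Set 1, though Set 1 stood apart differently in young and nephritic mice. Remission was not compared with Set 2 alone. Slc2a1 was 109 to 171 CPM in remission, 96.4 to 143 CPM in nephritic and 81.6 to 120 CPM in young mice. It was higher than in nephritic mice by 0.24 (SE 0.08, adjusted p = 0.0254, edgeR) and than in young mice by 0.40 (SE 0.08, adjusted p = 0.000306, edgeR). The call against nephritic mice was lost without RX10RL, s3, s8 or s9, and without s9 the adjusted p was 0.058 (edgeR). Without RX11LL 5 of 9 members passed against nephritic mice and without RX12LL 6 of 9. The count over all genes moved too, from 6319 with all mice to between 5600 and 6703 with 1 left out, the most without RX12LL.

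Slc5a2 was lower in remission than in young mice. The 4 remission mice of ZT0 had 168, 103, 162 and 83.6 CPM and the 4 of ZT12 had 251, 182, 104 and 81.8 CPM, all below the lowest of the 14 young mice at 256 CPM. The log2 change against young mice was -1.38 (SE 0.27, adjusted p = 0.000116, edgeR). Against nephritic mice, at 75.0 to 376 CPM, it was -0.53 (SE 0.25), with an interval from -1.02 to -0.04, and did not pass (adjusted p = 0.0941, edgeR). Without s10 it was -0.73 and passed (adjusted p = 0.024, edgeR). Slc2a2, at 50.7 to 112 CPM in remission, lay below young mice, with a log2 difference of -0.70 (SE 0.19, adjusted p = 0.00321, edgeR) and changed by -0.08 against nephritic mice (adjusted p = 0.763, edgeR).

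Slc2a6 was 1.14, 2.43, 2.24 and 2.61 CPM in the 4 remission mice of ZT0 and 0.604, 3.48, 5.84 and 3.62 CPM in those of ZT12. Of these 8 mice, 6 were above every young mouse, and the log2 change against young mice was 1.98 (SE 0.35, adjusted p = 3.22e-05, edgeR). Against nephritic mice it was -0.80 (SE 0.36), which did not pass (adjusted p = 0.0788, edgeR). Of the 9 leukocyte markers, 9 were above young mice, where 21.2% of all genes were, and 0 passed against nephritic mice, where 37.5% did. Of the 4 tubular injury genes, 3 were above young mice and 4 were below nephritic mice, where 20.5% of all genes were lower. The part of these lists in the values of Slc2a6 was not tested. Slc5a8 (0.59, adjusted p = 0.0899) and Slc2a5 (0.79, adjusted p = 0.0603) did not pass against nephritic mice with edgeR, and neither did Slc2a9 (-0.14, adjusted p = 0.582). With 1 mouse left out, Slc2a5 passed without CRS6LL, RX11LL, RX12LL or RX10RL, Slc2a6 without RX11LL, RX12LL or s14, and Slc5a8 without RX12LL.

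The run of the remission mice bears on these values. With a run term that rests on the 4 repeated mice, 1 of 9 members passed against nephritic mice, Slc5a10, where 23.6% of all genes did, and 2 of 9 against young mice, Slc5a2 and Slc2a6, where 13.8% did. Without RX11RU and its repeat, 0 of 9 passed against nephritic mice, where 22.7% of genes did and Slc5a10 changed by 0.65 (adjusted p = 0.0663, edgeR). Against young mice 1 of 9, Slc5a2, passed, where 10.1% of genes did. The repeat and original libraries of RX11RU differed by 0.61 in log2 CPM of Slc2a5 and by -0.45 in Slc5a8, while in the other 3 mice the differences lay between -0.18 and 0.20, apart from Slc2a6 and Slc2a9, which reached -0.46 and -0.33.

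Among the genes of the lists, the lactate carrier Slc5a12 was lower in remission than in nephritic mice (-0.64, adjusted p = 0.0335, edgeR) and lower still against young mice (-1.69, adjusted p = 2.7e-06, edgeR), while Slc5a6 was higher than in nephritic mice by 1.29 (adjusted p = 4.72e-05, edgeR). Over all genes 37.5% passed against nephritic mice (17% higher, 20.5% lower) and 41.6% against young mice (21.2% higher, 20.4% lower). List counts near these shares are no result about a list. Of 8 other Slc5 genes tested, 2 were higher and 1 lower than in nephritic mice, and 1 was lower than in young mice. Of 6 other Slc2 genes, 2 were higher than in nephritic mice, led by the inositol carrier Slc2a13 (1.16), and 1 was higher than in young mice, Slc2a3 (1.00). Of 10 sugar enzymes, 1 was higher than in nephritic mice, Hk1 (0.68), and against young mice 2 were higher, led by Hk3 (1.85), and 2 lower, led by G6pc (-1.26). Of 7 urate and monocarboxylate carriers, 1 was higher, Slc17a3 (0.65), and 1 lower, Slc16a1 (-0.58), than in nephritic mice, and 4 were lower than in young mice, led by Slc22a8 (-0.91). Of 7 partners and regulators 3 were higher than in nephritic mice and 0 differed from young mice at the threshold (edgeR). Of the 10 proximal tubule markers 3 were higher and 1 lower than in nephritic mice, and 5 were lower than in young mice.

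Within the nephritic mice, carrier levels were set against Havcr1, the injury gene of the proximal tubule also called Kim-1, and against the summed leukocyte markers, in 18 relations with permutation p from 100000 draws and Benjamini-Hochberg adjustment over the 18. Havcr1 spread from 4.41 to 10.1 in log2 CPM, and the largest step between neighbouring mice was 0.666. Slc5a2 fell with Havcr1, with a Pearson r of -0.728 (permutation p = 4e-05, adjusted p = 0.00018, n = 27) and a Spearman rho of -0.701 (permutation p = 0.0001). Without the 2 mice farthest from the median Havcr1, r was -0.785, and within Set 2 it was -0.711 (permutation p = 0.00012, adjusted p = 0.00144, 22 mice). The 2 farthest, RX8LL and RX90, had low Havcr1, at 4.41 and 4.48 in log2 CPM. Leaving them out thus does not test the weight of the mice with high Havcr1. Slc2a5 gave an r of -0.743 (permutation p = 1e-05, the smallest these draws can give, n = 27), a rho of -0.673 (permutation p = 0.00027), and -0.683 within Set 2 (permutation p = 0.0005). Slc2a6 went the other way, with an r of 0.694 (permutation p = 9e-05, n = 27), a rho of 0.636 (permutation p = 0.00064), and 0.629 within Set 2 (permutation p = 0.00156). Without the 2 farthest mice these were -0.773 for Slc2a5 and 0.686 for Slc2a6.

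The relations of Slc5a8 (r = -0.615), Slc5a10 (-0.547), Slc2a2 (-0.536) and Slc2a1 (0.426) with Havcr1 passed over all 27 mice but not within Set 2, where r was -0.477, -0.325, -0.492 and 0.331 and the adjusted permutation p lay between 0.0518 and 0.21. Slc5a1 (r = -0.209) and Slc2a9 (r = -0.273) did not pass over 27 mice, with permutation p of 0.294 and 0.168. Set 1 held 5 nephritic mice, too few for an r of its own. With the leukocyte sum, Slc2a2 (r = -0.720, permutation p = 2e-05, n = 27), Slc2a6 (r = 0.718, permutation p = 2e-05, n = 27) and Slc5a2 (r = -0.572, permutation p = 0.00204, n = 27) passed over all mice and within Set 2, where r was -0.595, 0.715 and -0.527. Slc5a1, Slc5a8, Slc5a10, Slc2a5 and Slc2a9 passed over all 27 mice too, with r between -0.424 and -0.537 and adjusted permutation p between 0.00817 and 0.0335, but not within Set 2. Slc2a1 did not pass (r = 0.255, adjusted permutation p = 0.21, n = 27). The rho of the first 3 were -0.631, 0.623 and -0.469, with permutation p of 0.00052, 0.00068 and 0.0142, and without the 2 farthest mice r was -0.665, 0.618 and -0.505. Genes outside the members were not set against Havcr1 or the leukocyte sum. The share of all genes that would pass is thus not known, and these counts are no result about the carriers as a group.

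**Figure D4:**
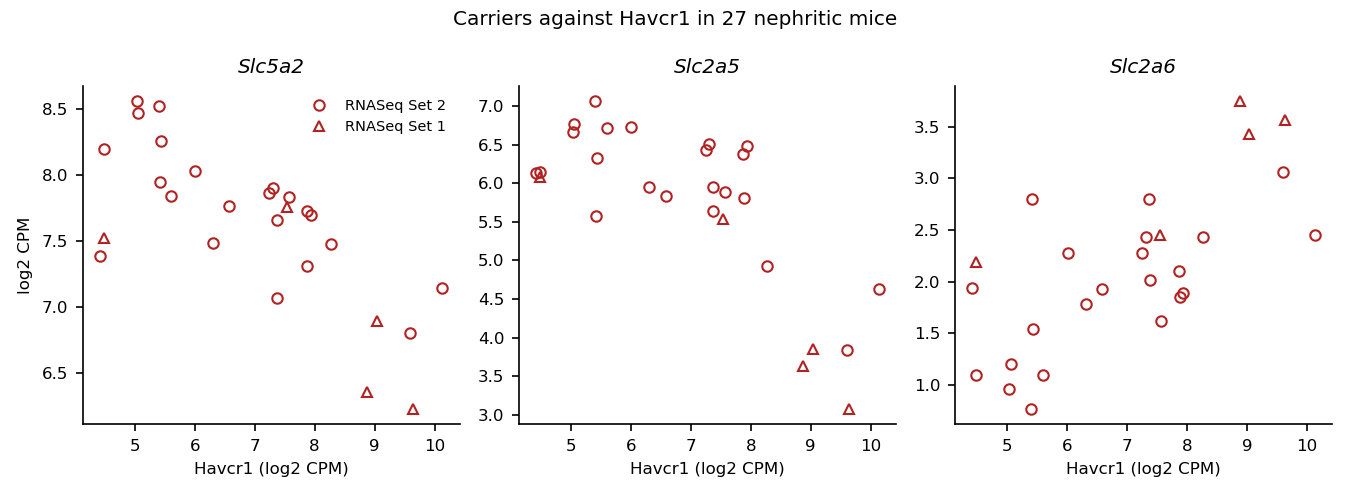
Log2 CPM of Slc5a2, Slc2a5 and Slc2a6 against that of Havcr1 in the 27 nephritic mice, 1 symbol per mouse, circles for RNASeq Set 2 and triangles for Set 1. Slc5a2 and Slc2a5 fall and Slc2a6 rises with Havcr1, with r of -0.728, -0.743 and 0.694.

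Over the 57 young and nephritic libraries, the genes whose log2 CPM followed Slc5a2 most closely were Acsm2 (Pearson r = 0.93), Lpar3 (0.92) and Slc34a3 (0.92), and those nearest Slc2a6 were H2-DMa (0.94), Relb (0.94) and Tmem173 (0.94). These are descriptions over libraries that share group, time and set. Once the means of group, time and set were taken out, r was 0.88, 0.91 and 0.87 for the first 3 and 0.68, 0.73 and 0.78 for the last 3.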

How the data were processed

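RNA of whole kidneys was sequenced from 65 mice, and 4 of them were sequenced again. The deposited files hold raw counts of uniquely aligned reads per gene symbol, made by the authors. The study's methods name the Burrows-Wheeler aligner, while the submitters' processing notes list HISAT and the mm10 genome, and the strand setting is not given in the sources used here. Groups and times are those of the labels. Counts were used as deposited, with 24523 symbols after 15 empty ones were set aside, a minimum of 100 counts over the mice of each fit, TMM scaling and edgeR 4.0.16 quasi-likelihood tests (R 4.3.3) with Benjamini-Hochberg adjustment at 0.05. Young and nephritic fits held time point and RNASeq set. The relations with Havcr1 and the leukocyte sum held neither. Log2 CPM used a prior count of 2. The difference in level, the change over time, the difference in rhythm, remission against each group, and ZT0 against ZT12 were tested. DESeq2 1.42.0, limma 3.58.1, other scaling, filters, covariates, sets and each left-out mouse were alternatives. Original libraries were used, and the 4 repeats served only as alternatives and for the run term.

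On simulated counts with 2-fold changes, 176 of 196 were recovered for nephritic against young mice (17469 genes), 157 of 199 for time in young (16458 genes), 126 of 200 for time in nephritic mice (16804 genes), and 153 of 200 for remission against nephritic mice (16783 genes). The simulated counts held no difference between sets, and their changes over time were 24 h cosines. Total counts ran from 13311278 to 48075977 a library. The members, the lists and the tests were chosen with earlier results of these data known. Genes outside the members were named as the members of fixed lists with the largest changes or by their roles, and for Slc5a2 and Slc2a6 the 3 genes with the highest correlation were named. Some genes of the lists, and a promoter motif that was searched, are not reported here. The p-values measure the spread between mice as labelled.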

Additional observations from a re-analysis of the deposited data

Results flagged for a closer look

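Among 108 combinations of carrier, group and time point with 4 to 10 mice, 7 held a mouse set apart from the rest of its group by Dixon's test at 95%, and chance alone flags about 1 in 20 groups. The 7 values came from 7 different mice. In young mice, ZT200 had 135 CPM of Slc2a1 at ZT20 beside 109 to 111 CPM in the others, and CR6LL had 103 CPM of Slc2a5 at ZT0 beside 71.0 to 79.6 CPM. ZT16RU had 58.2 CPM of Slc2a5 at ZT16 beside 74.8 to 77.3 CPM, and this library also held 11000 CPM of liver genes and 992 CPM of adrenal genes. ZT00 had 28.8 CPM of Slc2a9 at ZT0 beside 15.2 to 21 CPM. In nephritic mice, RX10RU had 61.6 CPM of Slc2a5 at ZT8 beside 105 to 109 CPM, and RX11LU had 56.9 CPM of Slc5a8 at ZT4 beside 48.2 to 49.1 CPM. In remission mice, s10 had 140 CPM of Slc5a1 at ZT12 beside 109 to 111 CPM.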

How the results depend on the processing

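The level calls of nephritic against young mice kept their direction under every alternative run apart from the uncalled Slc2a9, at 0.0567 in Set 1 alone, and 10453 to 10985 genes and 7 to 8 members passed with each mouse left out. For time in young mice, the joint fit called 3721 genes and 3 members, and 2860 genes passed without the libraries with liver or adrenal genes. For time in nephritic mice, DESeq2 called 5646 genes and 3 members and RLE scaling 3682 genes and 2 members. Set 2 alone called 4486 genes and 2 members and the joint fit 4859 genes and 4 members. The fit without a set term called 1994 genes and the 24 h cosine 362 genes. Without the libraries with liver or adrenal genes, 7163 genes and 6 members passed. Leaving out each mouse gave 2546 to 4319 genes and 0 to 3 members. For the difference in rhythm, DESeq2 called 2186 genes and 1 member, Set 2 alone 1715 genes, the cosine 121 and the fit without liver or adrenal libraries 630, with 638 to 1771 genes and 0 to 1 members over left-out mice.

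Remission against nephritic mice gave 6620 genes and 5 members with DESeq2 and 4001 genes and 1 member with the run term. With the run term and without RX11RU 3835 genes and 0 members passed, and over left-out mice 5600 to 6703 genes and 2 to 6 members. There Slc2a9 turned to 0.11 with the run term and to 0.0739 also without RX11RU, where Slc2a2 was 0.18, and over left-out mice Slc2a2 ranged from -0.22 to 0.0213. Remission against young mice gave 2342 genes and 2 members with the run term, and 1702 genes and 1 member without RX11RU. Slc5a1 turned to -0.0885 with the run term and -0.11 without liver or adrenal libraries, Slc2a5 to 0.14 without a set term, 0.11 with the run term and 0.45 without RX11RU, where Slc5a8 was 0.0285. Slc2a5 ranged from -0.15 to 0.04996 over left-out mice.

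ZT0 against ZT12 in young mice gave 1459 genes and 2 members without a set term, and 1836 genes and 2 members in Set 2 alone. Without liver or adrenal libraries 1207 genes and 1 member passed, where Slc2a6 was 0.11. Over left-out mice Slc2a1 ranged from -0.0732 to 0.0211 and Slc2a6 from -0.15 to 0.18. In nephritic mice DESeq2 called 594 genes, Set 2 alone 4, and the fit without liver or adrenal libraries 1496 and 1 member, with 2 to 16 genes over left-out mice. Slc5a8 was -0.0449 and Slc2a6 0.31 in Set 2, Slc2a1 was -0.0217 without liver or adrenal libraries, and Slc2a6 ranged from -0.45 to 0.0596 over left-out mice. In remission mice DESeq2 called 24 genes and the fit without s9 202, with 0 to 202 over left-out mice. There Slc5a1 was -0.0118 with DESeq2, -0.0113 with RLE scaling, -0.0108 with no filter, -0.0199 without s9 and -0.0759 to 0.0761 over left-out mice, Slc2a2 was -0.10 without s9 and -0.14 to 0.26 over left-out mice, Slc5a2 -0.46 to 0.0540 and Slc5a8 -0.35 to 0.0318. Of the 18 relations 6 passed in Set 2 alone, where r of Slc5a1 with Havcr1 was 0.115. The cause was not tested for any of these. The settings on liver or adrenal libraries, Set 1 alone and RX11RU were chosen after seeing the data.

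No paired analysis was possible because the replicate numbers only follow the order of the samples and pair no mice between groups. Counting error weighs most on Slc2a6, which had as few as 12 counts in a young and in a remission library.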
